A study of Collinsia rattanii with 18 samples.

Results

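Floral buds of the outcrossing annual *Collinsia linearis* and its selfing sister species *C. rattanii* were profiled by RNA-seq at 3 bud stages, early (B1), middle (B2) and late (B3). Genes that stood out at the middle stage of *C. linearis* are described here. They were selected on CPM, read counts scaled to a common library size, with library sizes adjusted by the trimmed mean of M-values (TMM). A gene with a mean of at least 2 CPM over the 9 *C. linearis* libraries counted as a peak when its lowest B2 library was at least 1.5 times its highest B1 or B3 library. It counted as a dip when its highest B2 library was at most the lowest B1 or B3 library divided by 1.5. The rule gave 31 genes of 46127, with 14 peaks and 17 dips, and 20203 genes had the minimum level. Because the *C. linearis* values chose these genes, the middle-stage levels of *C. linearis* are given as a description with no test. Expression in *C. rattanii*, which the rule did not use, was tested.

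The 6 groups were *C. linearis* at B1, B2 and B3 and *C. rattanii* at B1, B2 and B3, with 3 libraries each. Each library came from whole buds of 1 plant at 1 stage, and the same 3 plants per species, raised from 2 wild populations, gave all 3 stages. The buds were untreated, and the stages were set by the size and color of the developing organs. The reads of both species were aligned to the *C. rattanii* genome, so that a level in *C. linearis* also depends on how well its reads matched that genome.

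During bud development, petals, stamens and style elongate and change color, and the anthers complete the pollen grains. In young anthers, the tapetum, a nursing cell layer, supplies sporopollenin, the tough polymer of the outer pollen wall, and later breaks down. Genes of short-lived cell layers can therefore be abundant in buds of 1 stage and close to absent in the next. A peak or dip at B2 is a course in which the middle stage lies outside the range of both its neighbors. In whole buds, fewer cells of a type and less RNA per cell cannot be told apart. The deposited gene identifiers carry no names, so the roles given below are restricted to the 9 genes that the study annotates in its text or legends. The other members are described by identifier and expression alone.

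Total counts ran between 23831351 and 41451418 per library. The TMM factors were 0.716 in *C. linearis* plant 2 at B2 and 0.522 in *C. linearis* plant 2 at B3, against 0.935 to 1.2 in the other libraries. Plant 3 at B2 stood apart within *C. linearis*. It held over 90% of the summed *C. linearis* CPM of 112 genes at or above the minimum level, against 13 genes for plant 3 at B1, 3 for plant 3 at B3 and 0 for each of the other 6 *C. linearis* libraries. Plant 1 at B1 stood apart as well. RCORA09826 and RCORA03278, orthologs of the *Arabidopsis* genes LAP5 and LAP6 for enzymes of sporopollenin synthesis, mark the pollen wall program. RCORA09826 had 3.23 CPM at B1 in plant 1, against 347 CPM in plant 2 and 645 CPM in plant 3. RCORA03278 had 9.12 CPM at B1 in plant 1, against 614 CPM in plant 2 and 1142 CPM in plant 3. The other 15 libraries, B2, B3 and all of *C. rattanii*, were between 2.41 and 8.78 CPM for RCORA09826 and between 6.80 and 21.5 CPM for RCORA03278. *C. linearis* plant 1 at B1 thus fell within the range of the later buds for both genes. The part that this library and plant 3 at B2 play in the values below was not tested beyond the values given with and without them.

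Peaks made up 0.0693% and dips 0.0841% of the 20203 genes with the minimum level. The same rule applied to the other stages of *C. linearis* gave 148 genes with B1 above both other stages (0.733%) and 178 with B1 below (0.881%). It gave 403 genes with B3 above (1.99%) and 330 with B3 below (1.63%). The middle-stage counts depend on single libraries, since 235 genes met the peak rule without plant 1 at B1 and 175 met the dip rule without plant 3 at B2. The counts for B1 and B3 were not recomputed without those libraries. In *C. rattanii*, 12 genes of 20149 had B2 above both neighbors by the same rule (0.0596%) and 14 had B2 below (0.0695%). None of these *C. rattanii* genes was a member in *C. linearis* (0 shared in either direction). With so few genes in each set, unrelated sets would rarely share a gene, so the 0 is not read as a difference between the species. With no fold required and ties at 0 left out, B2 libraries lay wholly above the B1 and B3 libraries for 196 of the 20203 *C. linearis* genes. They lay wholly below for 286 of the 20203. At the limit of 1.5, the last peaks inside had ratios of 1.51 and 1.53 and the first genes outside 1.48 and 1.47. The last dips inside had ratios of 1.51 and 1.64 and the first genes outside 1.49 and 1.46.

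The members were of 3 kinds. In 8 peaks and 5 dips, the stage or stages with the higher level had at least 10 counts in every library. In 2 peaks and 1 dip, the lowest library on the higher side had between 1 and 3 counts. In 4 peaks and 11 dips, the lowest library on the higher side and the highest on the lower side were both at 0, a tie that the rule admits. With ties left out, 10 peaks and 6 dips remained. Members were low in level, with a median of 5.0 CPM over *C. linearis* for peaks (2.1 to 67.1) and 5.19 CPM for dips (2.15 to 56.4), against 21.4 CPM over all 20203 genes.

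**Figure D1:**
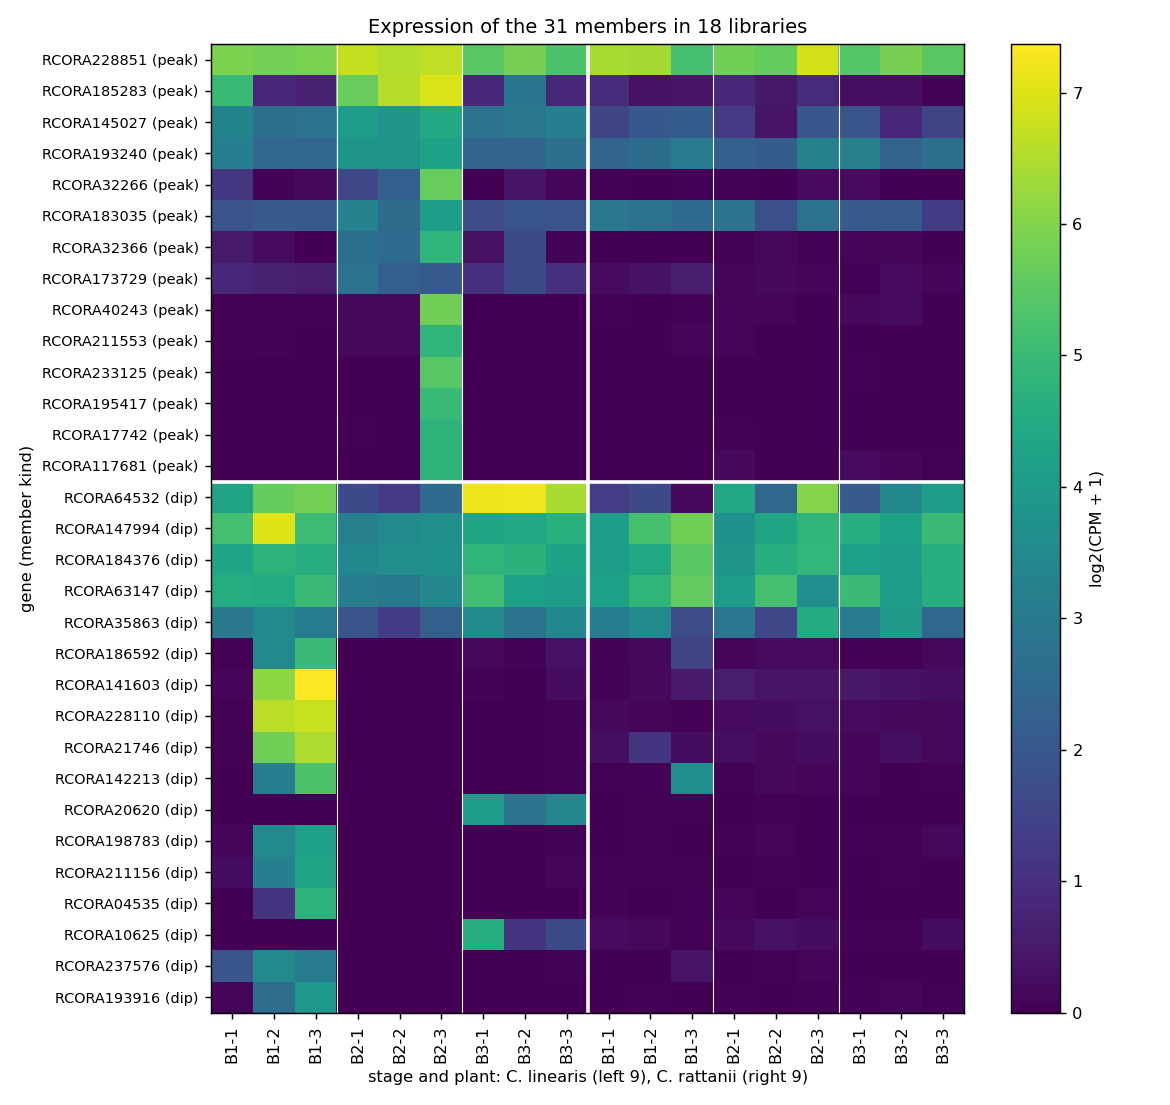
Heat map of log2(CPM + 1) for the 31 members (rows, peaks above the thick horizontal line and dips below it) in the 18 libraries (columns, stage and plant, *C. linearis* left of the thick vertical line and *C. rattanii* right of it). In the 6 lowest peak rows, color above the floor appears in *C. linearis* plant 3 at B2 alone, and the 12 lowest dip rows are dark at *C. linearis* B2, 10 of them with their reads at B1.

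Among the 8 peaks with at least 10 counts in every B2 library, RCORA193240 and RCORA185283 had the largest ratios of those with at least 10 counts in all 9 *C. linearis* libraries. RCORA193240 had 8.06, 4.35 and 4.36 CPM at B1 in *C. linearis* plants 1, 2 and 3, then 13.0, 13.1 and 17.4 CPM at B2, and 4.34, 4.25 and 5.59 CPM at B3. Its lowest B2 library was 1.61 times the highest of the others, which was plant 1 at B1. In *C. rattanii* the same gene had 4.31, 5.13 and 7.05 CPM at B1, 3.75, 3.55 and 8.47 CPM at B2 and 8.19, 4.18 and 5.60 CPM at B3, and the 3 stages overlapped. The *C. rattanii* B2 level differed from the mean of B1 and B3 by -0.20 ± 0.32 on the log2 scale (SE, unadjusted p = 0.545, edgeR's quasi-likelihood test).

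RCORA185283 had the highest level of these genes at B2 in 2 of 3 plants. It had 31.1, 0.774 and 0.592 CPM at B1 in *C. linearis* plants 1, 2 and 3, then 49.1, 94.5 and 122 CPM at B2, and 0.778, 6.32 and 0.779 CPM at B3. Plant 1 at B1, the library with low levels of the pollen wall genes, was far above the other B1 libraries, and it alone held the ratio of lowest B2 to highest other library at 1.58. In *C. rattanii* RCORA185283 had 0.920, 0.261 and 0.303 CPM at B1, 0.796, 0.397 and 0.866 CPM at B2 and 0.212, 0.199 and 0.0316 CPM at B3. The *C. rattanii* libraries were all under 1 CPM, and B2 overlapped B1 (log2 difference from the mean of B1 and B3 of 1.28 ± 1.12, SE, unadjusted p = 0.273, edgeR's quasi-likelihood test).

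RCORA228851 was the most abundant of the 14 peaks, with a mean of 67.1 CPM over *C. linearis*. It had 58.8, 55.5 and 58.3 CPM at B1, 104, 89.9 and 99.8 CPM at B2 and 43.1, 56.5 and 38.9 CPM at B3 in *C. linearis* plants 1, 2 and 3. *C. rattanii* buds had 84.8, 81.9 and 35.8 CPM at B1, 54.3, 48.5 and 115 CPM at B2 and 41.9, 56.7 and 43.3 CPM at B3. Plant 3 alone was higher at B2 than at both other stages in *C. rattanii*, at 2.90 times the mean of its B1 and B3 buds, while plants 1 and 2 were at 0.86 and 0.70 times.

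RCORA145027 and RCORA173729 were low or close to absent in *C. rattanii*. RCORA145027 had 8.93, 5.31 and 5.66 CPM at B1, 16.0, 13.5 and 20.6 CPM at B2 and 5.69, 6.54 and 7.86 CPM at B3 in *C. linearis* plants 1, 2 and 3. The *C. rattanii* levels were 1.93, 3.1 and 3.50 CPM at B1, 1.39, 0.344 and 2.94 CPM at B2 and 2.75, 0.796 and 1.87 CPM at B3. Each *C. rattanii* library was thus below each *C. linearis* library, and the *C. rattanii* stages overlapped. RCORA173729 had 0.806, 0.614 and 0.481 CPM at B1, 5.89, 3.69 and 3.29 CPM at B2 and 0.983, 2.13 and 1.03 CPM at B3 in *C. linearis*. In *C. rattanii* it had 0.172, 0.290 and 0.468 CPM at B1, 0.0995, 0.132 and 0.0928 CPM at B2 and 0.0302, 0.159 and 0.0948 CPM at B3, which stand on 1 to 17 counts per library. Its *C. rattanii* B2 level was 0.98, 0.59 and 0.33 times the mean of B1 and B3 in plants 1, 2 and 3. The log2 difference was -0.69 ± 0.53 (SE, unadjusted p = 0.216, edgeR's quasi-likelihood test).

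RCORA183035 had 2.67, 3.31 and 3.25 CPM at B1, 8.57, 5.11 and 16.4 CPM at B2 and 2.25, 2.80 and 2.73 CPM at B3 in *C. linearis* plants 1, 2 and 3. Levels in *C. rattanii* were 6.75, 6.06 and 4.98 CPM at B1, 6.17, 2.51 and 5.78 CPM at B2 and 3.35, 3.26 and 1.49 CPM at B3. The *C. rattanii* mean was highest at B1 and lowest at B3, with B2 between 5.93 and 2.7 CPM at a mean of 4.82 CPM.

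RCORA32366 and RCORA32266 had most of their reads in 1 library. RCORA32366 had 0.434, 0.160 and 0 CPM at B1, 5.44, 4.91 and 27.1 CPM at B2 and 0.246, 2.13 and 0.0354 CPM at B3 in *C. linearis* plants 1, 2 and 3. RCORA32266 had 1.27, 0.0534 and 0.148 CPM at B1, 1.95, 3.65 and 49.1 CPM at B2 and 0, 0.336 and 0.0708 CPM at B3. Plant 3 at B2 held 67.0% of the summed *C. linearis* CPM of RCORA32366 and 86.8% of that of RCORA32266. The remaining B2 libraries lay above all B1 and B3 libraries for both genes, as the rule requires. In *C. rattanii* neither gene passed 5 counts in any library, and B1 was at 0 counts in all 3 plants for RCORA32366.

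**Figure D2:**
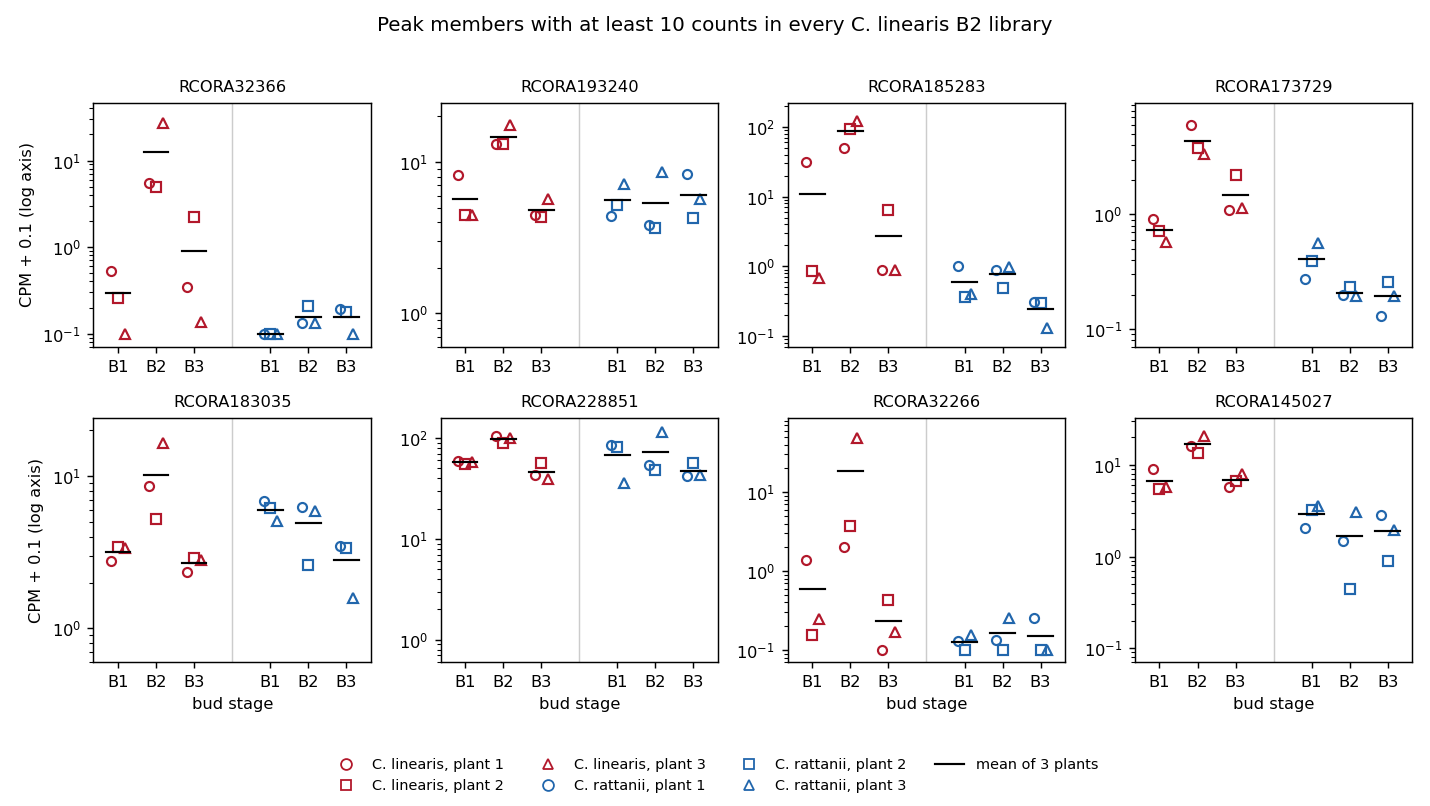
Expression (CPM + 0.1, log axis) of the 8 peaks with at least 10 counts in every *C. linearis* B2 library, by bud stage, with *C. linearis* (red) left of *C. rattanii* (blue). Symbols are plants and black lines are means of 3 plants, and the *C. linearis* B2 symbols sit above all others of that species in every panel, as the rule requires, while the *C. rattanii* B2 symbols overlap those of B1 or B3.

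The other 6 peaks were detected almost entirely in *C. linearis* plant 3 at B2. These were RCORA40243, RCORA211553, RCORA117681, RCORA17742, RCORA195417 and RCORA233125, named here because of that pattern. They had between 942 and 1887 counts in that library, or 26.7 to 53.5 CPM, and at most 5 counts in any other *C. linearis* library. That library held from 98.8% to 100% of their summed *C. linearis* CPM. RCORA40243, the highest, had 1887 counts in plant 3 at B2, against 5 and 3 counts in plants 1 and 2. In *C. rattanii* none of the 6 passed 5 counts in a library, and RCORA195417 was at 0 in all 9. With 3 counts per library as the floor, RCORA195417 was at least 36.9-fold higher in *C. linearis* than in *C. rattanii* over all stages, on the reads of 1 library. These genes are peaks of 1 plant, and without that library 103 genes met the peak rule, of which 5 were among the 14.

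**Figure D3:**
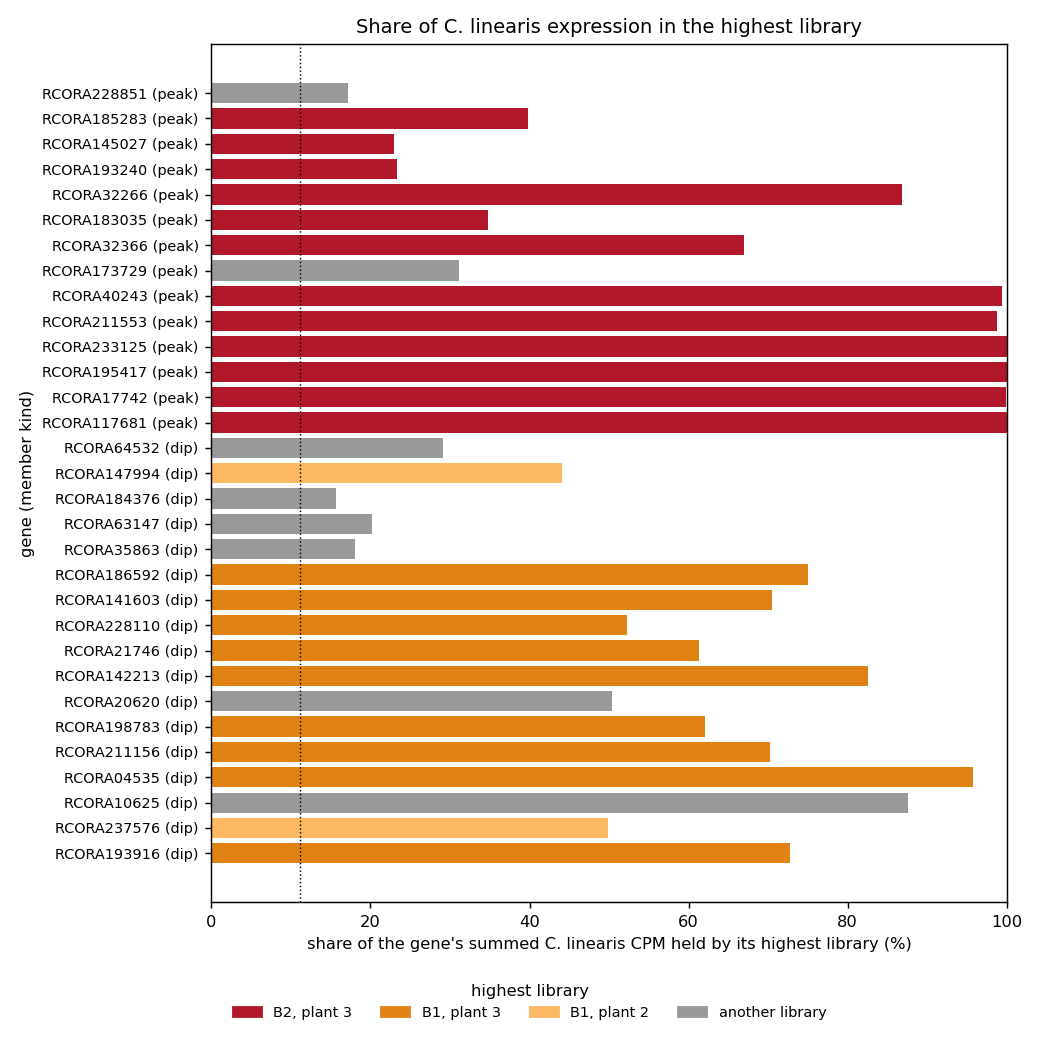
Share (%) of each member's summed *C. linearis* CPM that its highest library holds, with bar color giving that library and the dotted line an equal share of 9 libraries. Plant 3 at B2 was the highest library of 12 of the 14 peaks, with 98.8% or more for 6 of them, and plant 3 at B1 was the highest of 9 of the 17 dips.

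The 5 dips with counts in every *C. linearis* library were led by RCORA64532, which had the largest ratio among members with reads on both sides of it. RCORA64532 had 18.7, 48.5 and 56.2 CPM at B1 in *C. linearis* plants 1, 2 and 3, then 2.14, 1.34 and 5.02 CPM at B2, and 143, 148 and 84.8 CPM at B3. Its highest B2 library was 3.73 times below its lowest other library. In all 3 plants B2 was below B1 and B3, as the rule requires. *C. rattanii* had 1.55, 2.06 and 0.138 CPM at B1, 20.5, 4.39 and 63.0 CPM at B2 and 3.32, 9.95 and 16.7 CPM at B3. Here B2 was the highest stage in plants 1 and 3, at 8.40 and 7.48 times the mean of B1 and B3, but not in plant 2, at 0.73 times. The *C. rattanii* B2 level was 2.97 ± 0.75 higher than the mean of B1 and B3 on the log2 scale (SE, unadjusted p = 0.00134), which did not pass the threshold over all genes (adjusted p = 0.740, edgeR's quasi-likelihood test with Benjamini-Hochberg adjustment). DESeq2's Wald test gave a log2 difference of 3.02 with an adjusted p of 0.0301, also short of the threshold of 0.01. The adjusted p from edgeR's quasi-likelihood test was between 0.184 and 1.00, and the log2 difference between 1.81 and 3.81, when each library or plant was left out in turn. *C. rattanii* B1 lay below the lowest B3 library in all 3 plants.

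RCORA35863 had 6.76, 10.6 and 7.47 CPM at B1, 2.66, 1.46 and 3.69 CPM at B2 and 10.7, 6.15 and 9.88 CPM at B3 in *C. linearis* plants 1, 2 and 3. In *C. rattanii* it had 7.67, 10.3 and 2.2 CPM at B1, 6.44, 1.96 and 22.4 CPM at B2 and 7.40, 14.9 and 4.43 CPM at B3. The plants of *C. rattanii* did not share a course, with B2 at 0.85, 0.16 and 6.75 times the mean of B1 and B3 in plants 1, 2 and 3.

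RCORA147994 had 35.1, 128 and 32.0 CPM at B1, 8.18, 10.1 and 11.9 CPM at B2 and 19.4, 20.5 and 25.2 CPM at B3 in *C. linearis* plants 1, 2 and 3. The rule set a lower B2 in each *C. linearis* plant. Of the 5, RCORA147994 alone was also lower at B2 in each *C. rattanii* plant, at 0.59, 0.72 and 0.63 times the mean of B1 and B3. Of the 13 dips with at least 10 counts over *C. rattanii*, 1 (7.69%) was so, against 13.5% of all 29086 such genes. In *C. rattanii* RCORA147994 had 16.4, 36.7 and 54.3 CPM at B1, 11.9, 19.6 and 27.2 CPM at B2 and 24.2, 17.4 and 31.4 CPM at B3. The libraries of the 3 stages overlapped (log2 difference -0.67 ± 0.46, SE, unadjusted p = 0.163, edgeR's quasi-likelihood test).

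RCORA63147 had 22.5, 21.7 and 31.5 CPM at B1, 7.61, 6.93 and 9.70 CPM at B2 and 33.7, 17.3 and 15.9 CPM at B3 in *C. linearis* plants 1, 2 and 3. The *C. rattanii* buds had 17.4, 27.0 and 47.4 CPM at B1, 15.5, 35.9 and 11.3 CPM at B2 and 31.3, 15.8 and 22.9 CPM at B3. Plants 1 and 3 of *C. rattanii* were lower at B2 and plant 2 was higher. RCORA184376 had the smallest ratio of the dips, 1.51, with *C. linearis* means of 22.8 ± 3.4 CPM at B1, 11.1 ± 1.2 CPM at B2 and 23.7 ± 4.7 CPM at B3 (SD, n = 3 each). Its *C. rattanii* means were 26.6 ± 14.7, 21.5 ± 7.6 and 18.8 ± 3.5 CPM at B1, B2 and B3 (SD, n = 3 each), so that the stages overlapped.

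**Figure D4:**
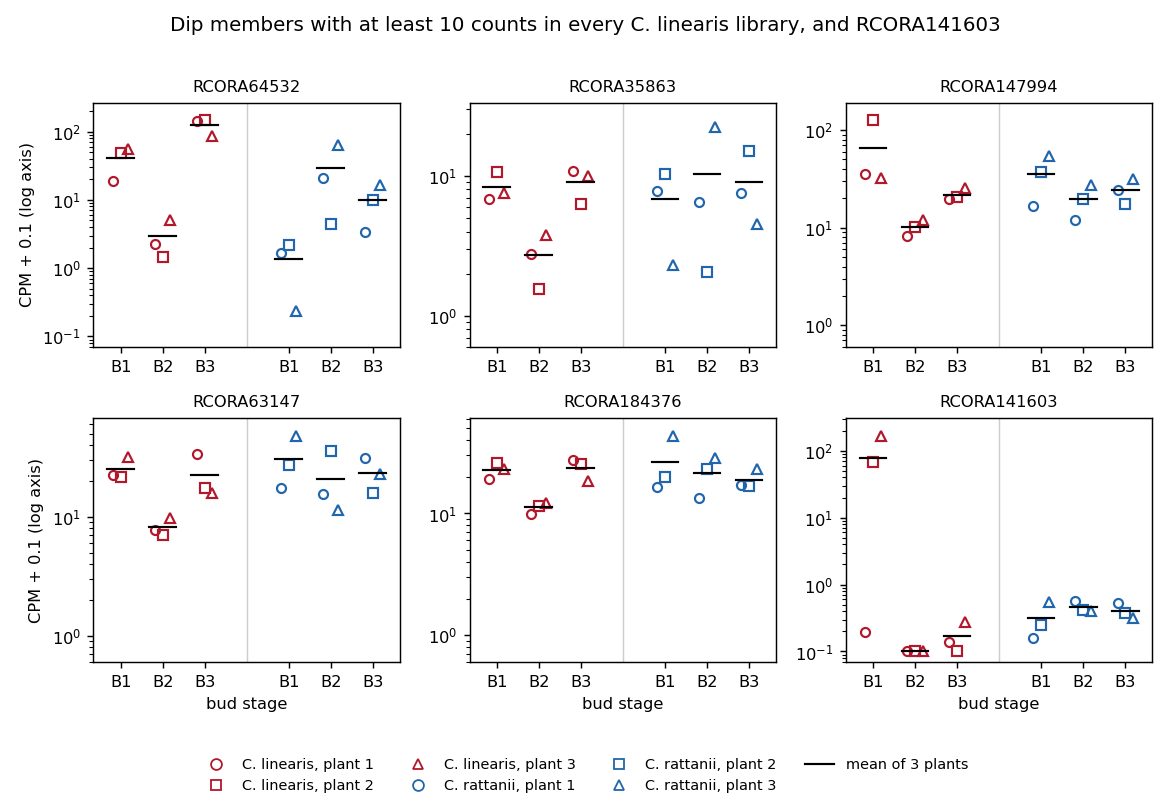
Expression (CPM + 0.1, log axis) of the 5 dips with at least 10 counts in every *C. linearis* library and of RCORA141603, by bud stage, with *C. linearis* (red) left of *C. rattanii* (blue). Symbols are plants and black lines are means of 3 plants. RCORA64532 is lowest at B2 in *C. linearis*, with 1.34 to 5.02 CPM, while its *C. rattanii* mean is highest at B2, and RCORA141603 is above 1 CPM only in *C. linearis* plants 2 and 3 at B1.

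The other 12 dips had 0 counts in all 3 *C. linearis* B2 libraries. At these depths, 3 counts correspond to 0.0935 CPM on average over the B2 libraries, so that a lower level could not be detected. Of the 12, 10 had their reads at B1 and 2 at B3. For 9 of the 10, reads at B1 came from plants 2 and 3, with 44 to 3638 counts in plant 2 and 381 to 4443 counts in plant 3, against 0 to 6 counts in plant 1. The same 9 had at most 8 counts in a B3 library. These genes therefore met the dip rule by being near 0 at B3 and in plant 1 at B1 as well as at 0 at B2, and their course is that of a B1 level in 2 of 3 plants. RCORA09826 and RCORA03278 had the same high libraries.

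RCORA141603 belonged to these 9 and was the single member among the 9 genes that the study annotates. It is annotated to the regulation of transcription. RCORA141603 had 3, 2573 and 4443 counts at B1 in *C. linearis* plants 1, 2 and 3, or 0.0931, 68.6 and 164 CPM, 0 counts in all plants at B2, and 1, 0 and 5 counts at B3. With the floor of 3 counts per library, its B1 level was at least 831-fold higher than its B2 level. In *C. rattanii* it had between 2 and 16 counts in every library, at means of 0.214, 0.364 and 0.308 CPM at B1, B2 and B3. It was thus detected in all 9 *C. rattanii* libraries, including B2, where *C. linearis* had no read. RCORA205649, annotated to callose deposition in the cell wall and not a member, had 0, 1538 and 1500 counts at B1 in plants 1, 2 and 3, against 0, 1 and 0 counts at B2, a single read that kept it outside the rule.

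RCORA228110 and RCORA21746 were the next highest of these genes. RCORA228110 had 1, 3638 and 2869 counts at B1 in *C. linearis* plants 1, 2 and 3, 0 counts in all plants at B2, and 0, 0 and 1 count at B3, and its B1 level was at least 724-fold higher than its B2 level. RCORA21746 had 1, 2047 and 2341 counts at B1, 0 counts in all plants at B2, and 0, 0 and 1 count at B3, at least 503-fold higher at B1 than at B2. The other 6 were RCORA142213, RCORA186592, RCORA04535, RCORA198783, RCORA211156 and RCORA193916, with *C. linearis* B1 means between 6.46 and 15.6 CPM. RCORA237576 was the exception of the 10, with reads at B1 in all 3 plants, at 92, 380 and 197 counts or 2.85, 10.1 and 7.29 CPM, 0 counts in all plants at B2, and 0, 0 and 1 count at B3. In *C. rattanii* the 10 genes had at most 67 counts in any library apart from RCORA142213, which had 426 counts in plant 3 at B1 and at most 4 counts in the other 8 libraries. That library was also the highest of *C. rattanii* B1 for RCORA09826, with 8.78 CPM in plant 3, against 3.71 and 3.22 CPM in plants 1 and 2.

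The 2 dips with reads at B3 were RCORA20620 and RCORA10625. RCORA20620 had 380, 106 and 266 counts at B3 in *C. linearis* plants 1, 2 and 3, or 15.6, 5.93 and 9.42 CPM, and 0 counts in every B1 and B2 library. With the floor of 3 counts per library, its B3 level was at least 110-fold higher than its B2 level and at least 109-fold higher than its B1 level. RCORA10625 had 569, 21 and 60 counts at B3, or 23.3, 1.17 and 2.12 CPM, and 0 counts in every B1 and B2 library. Both are late-bud genes that tie at 0 in the earlier stages. In *C. rattanii* RCORA20620 had at most 1 count in a library, whereas RCORA10625 had 1 to 11 counts in each of the 9 libraries.

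The next question was whether these genes also stood out at the middle stage in *C. rattanii*. Of the members, 10 peaks and 13 dips had at least 10 counts summed over the *C. rattanii* libraries. B2 had the highest *C. rattanii* mean in 3 of the 10 peaks (30%) and in 5 of the 13 dips (38.5%), against 35.7% of all 29086 genes with 10 counts. B2 had the lowest mean in 2 peaks (20%) and in 2 dips (15.4%), against 27.3% of all genes. The B2 libraries lay wholly above the other *C. rattanii* libraries in 0 peaks and 1 dip (1.93% of all genes), and wholly below in 0 members (0.729% of all genes). The 1 dip was RCORA228110, named for this after its values were seen, with 5, 7 and 8 counts at B2 or 0.166, 0.185 and 0.247 CPM, against at most 0.151 CPM, or 5 counts, at B1 and B3. It was among the genes at 0 counts at B2 in *C. linearis*.

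For the tests, a low-count filter left 27837 genes and 20 of the 31 members, 8 peaks and 12 dips. It asked for a minimum count in at least as many libraries as 1 group held. RCORA228110 failed it, despite 3638 and 2869 counts at *C. linearis* B1 in plants 2 and 3. RCORA141603, RCORA21746, RCORA186592 and RCORA142213 had the same high *C. linearis* libraries. They passed through *C. rattanii* libraries as well, with at most 16, 40, 67 and 426 counts. The others could enter through the *C. linearis* libraries in which they were high, and the 20 are not all members. In *C. rattanii* no gene passed the threshold for B2 against the mean of B1 and B3, either higher (0%) or lower (0%), by edgeR's quasi-likelihood test with Benjamini-Hochberg adjustment and a false discovery rate (FDR) of 0.01. At an unadjusted p below 0.05, 705 genes were higher (2.53%) and 601 lower (2.16%), and DESeq2's Wald test called 43 genes and 0 members. Of the members, 0 of 8 peaks and 1 of 12 dips, RCORA64532, were below that unadjusted p, in the direction opposite to *C. linearis*. The median log2 difference at *C. rattanii* B2 was 0.25 over the 8 peaks and 0.10 over the 12 dips, against -0.0054 over all genes. It was positive in 5 of the 8 peaks and in 6 of the 12 dips. Among those dips, RCORA20620 had 3 counts in total over *C. rattanii*. Its log2 difference of 0.48 ± 0.56 (SE) is therefore not informative. The standard errors of the 20 members were between 0.28 and 2.27 on the log2 scale, so that a small course at B2 in *C. rattanii* was not detectable for many of them. RCORA32366 had the second smallest p of those higher at *C. rattanii* B2, with a log2 difference of 1.96 ± 1.56 (SE, unadjusted p = 0.231, edgeR's quasi-likelihood test) on at most 4 counts per library.

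**Figure D5:**
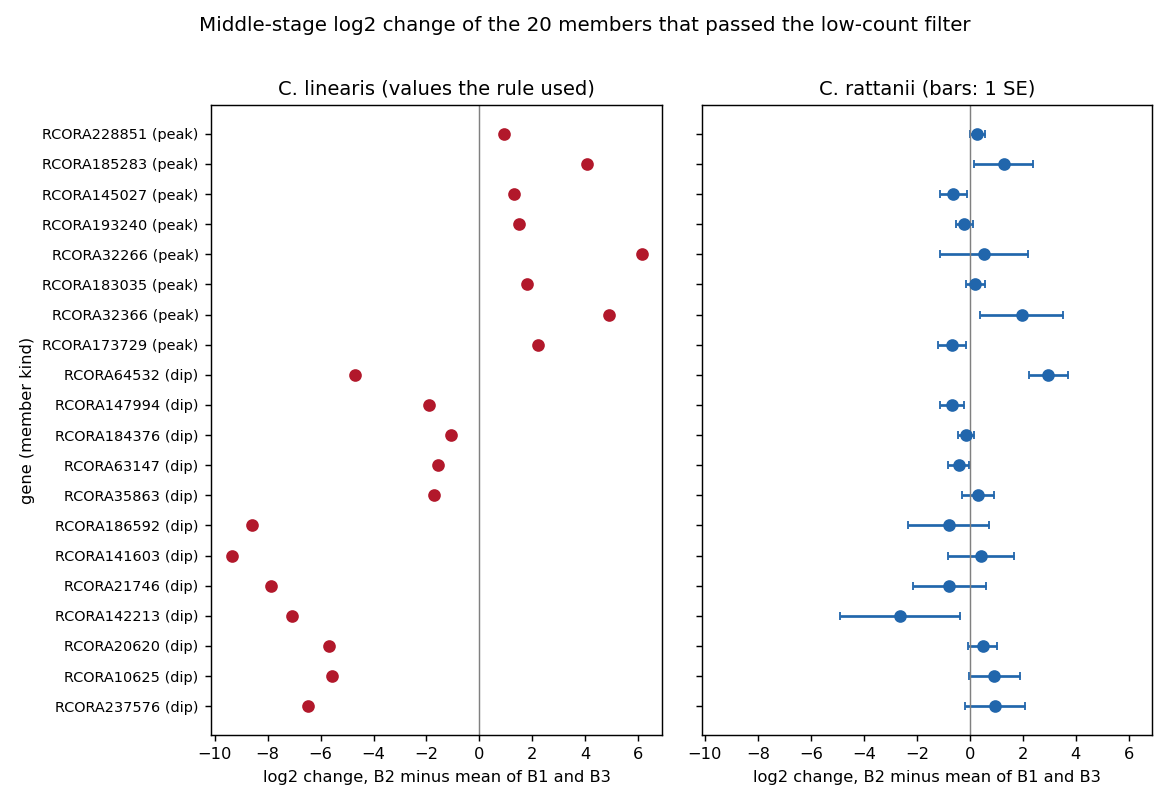
Log2 change of B2 against the mean of B1 and B3 for the 20 members that passed the low-count filter (rows), in *C. linearis* (left, the values the rule used) and *C. rattanii* (right, bars of 1 SE, with all 9 libraries of each species behind the values). The *C. rattanii* points lie between -2.64 and 2.97, and of the dips RCORA64532 is farthest to the right. The *C. rattanii* point and bar of RCORA20620 stand on 3 counts in total and are not informative.

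The rule did not set the sign of the change between B3 and B1, but it used the same *C. linearis* B1 and B3 libraries. A member at 0 at B2 needed its reads at B1 or B3 to reach the minimum level. The *C. linearis* changes of the members are thus given as a description. In *C. linearis*, 600 genes were higher at B3 than at B1 (2.16%) and 592 lower (2.13%) at the FDR of 0.01 by edgeR's quasi-likelihood test with Benjamini-Hochberg adjustment. Of the 8 peaks, 0 passed in either direction, with 1 gene at an unadjusted p below 0.05, and their median log2 change was -0.25, against -0.028 over all genes. The rule held both end stages of a peak below its B2 libraries, which limits their difference. The count for the peaks is therefore not a result about their end stages. Of the 12 dips, 2 rose, RCORA20620 (adjusted p = 0.00186) and RCORA10625 (adjusted p = 0.00457), and 2 fell, RCORA21746 (adjusted p = 0.00701) and RCORA141603 (adjusted p = 0.00754). All 4 were members at 0 at B2, so these counts describe the ties and say nothing of a middle-stage course. The calls were close to the threshold. With plant as a replicate block, 1 of the 4 passed, RCORA21746 (adjusted p = 0.00303), and RCORA20620 (0.0227), RCORA10625 (0.0110) and RCORA141603 (0.0112) did not. In the *C. linearis* libraries alone 0 members passed, and DESeq2's Wald test called 11. Without plant 2 at B1, 0 of the 4 passed, and without plant 1 at B1, 9 members passed.

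In *C. rattanii*, 1 gene was higher at B3 than at B1 (0.00359%) and 3 lower (0.0108%) at the same threshold, and 1033 (3.71%) and 1460 (5.24%) were so at an unadjusted p below 0.05. No member passed the threshold by edgeR's quasi-likelihood test, and the median log2 change was -0.59 over the 8 peaks and -0.54 over the 12 dips, against -0.021 over all genes. At the unadjusted p, 0 of 8 peaks were higher and 2 lower, and 1 of 12 dips was higher and 2 lower. The higher dip was RCORA64532, with a log2 change of 3.00 ± 0.97 (SE, unadjusted p = 0.00782, edgeR's quasi-likelihood test). Its *C. linearis* mean was also higher at B3 than at B1, at 125 ± 35 CPM against 41.1 ± 19.8 CPM (SD, n = 3 each). That *C. linearis* change did not pass the threshold (log2 change 1.60 ± 0.90, SE, adjusted p = 0.261, edgeR's quasi-likelihood test with Benjamini-Hochberg adjustment).

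The level over all stages was compared between the species as a description, because the rule acted on the *C. linearis* level. It required a minimum level in *C. linearis* and, for peaks, a high B2, which raise the level there. For dips it required a low B2, which lowers it. The test also treated the 9 libraries per species as independent, although they came from 3 plants. At the FDR of 0.01 by edgeR's quasi-likelihood test, 6173 genes were higher in *C. linearis* than in *C. rattanii* (22.2%) and 5929 lower (21.3%). Of the 8 peaks, 5 were higher in *C. linearis* and 0 lower, with a median log2 difference of 2.81, against 0.016 over all genes. Among the 5, RCORA32366 and RCORA32266 had at most 4 and 5 counts in a *C. rattanii* library. Both passed the low-count filter through the *C. linearis* libraries in which they were high. The count and the median are therefore not a result about the peaks. Of the 12 dips, 1 was higher and 0 lower, with a median of -0.15. RCORA173729 and RCORA145027 had the smallest p among the peaks, with log2 differences of 3.40 ± 0.34 and 2.21 ± 0.34 (SE). Outside B2, RCORA145027 averaged 6.63 ± 2.00 CPM in *C. linearis* and 2.84 ± 0.82 CPM in *C. rattanii* at B1, and 6.70 ± 1.09 CPM in *C. linearis* and 1.80 ± 0.98 CPM in *C. rattanii* at B3 (SD, n = 3 each). The higher dip was RCORA64532, with a log2 difference of 1.81 ± 0.53 (SE), for which *C. linearis* was higher at B1 and B3 and lower at B2. RCORA63147 had the smallest p on the lower side, at -0.55 ± 0.26 (SE, adjusted p = 0.0889, edgeR's quasi-likelihood test with Benjamini-Hochberg adjustment), and its *C. rattanii* libraries overlapped those of *C. linearis* B1 and B3. RCORA10625 followed, with a fitted difference of -1.33 ± 0.78 (SE, adjusted p = 0.169, same test), averaged over stages on the log scale with *C. linearis* at 0 in 2 of them, although its mean level was 2.96 CPM in *C. linearis* and 0.135 CPM in *C. rattanii*.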

How the data were processed

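Polyadenylated RNA of whole floral buds was sequenced as paired ends from a directional library kit. Per the labels and the study's methods, the authors aligned reads with STAR and counted them on *C. rattanii* gene models with featureCounts, and they deposited raw counts per gene. How strand and multi-mapped reads were handled is not stated there, so counts of near-identical or overlapping genes are uncertain. Species was taken from sample titles, since the organism label names 1 species. Further library columns (2) matching no single sample were not used.

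CPM used TMM factors over all genes (edgeR 4.0.16, R 4.3.3). Counts of genes passing filterByExpr were fitted with edgeR's quasi-likelihood model on the 6 groups, with Benjamini-Hochberg adjustment over 27837 genes and an FDR of 0.01. Each SE was derived from a log2 change and its F value. P-values rest on the spread between the 3 libraries within a group, pooled over the 6 groups and drawing on the other genes. Libraries of 1 plant at different stages were treated as independent. The species comparison thus counts 9 libraries per species from 3 plants, and the replicate-block alternative did not cover it. DESeq2 1.42.0, other settings and left-out libraries or plants were alternatives. The steps were tested on simulated data.

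Plant numbers pair the libraries of 1 plant across stages. Deviations from group means correlated between -0.45 and 0.641 over 18 same-plant pairs (median -0.0505), against a median of 0.0152 for different plants.

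Members and lists were chosen with earlier results of these data known. Genes were named by a rule: the 2 with the largest ratio in each direction and at least 10 counts in all *C. linearis* libraries, the 2 with the smallest p in each direction of each test (B3 against B1 in *C. rattanii* excepted), and those the study annotates in its text. Other members were named to account for each of them, after their values were seen.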

Additional observations from a re-analysis of the deposited data

Results flagged for a closer look

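In 3 members, all 3 plants of *C. linearis* moved one way at B2 against the mean of their B1 and B3 buds and all 3 plants of *C. rattanii* moved the other way. The difference between the species was not tested, since the *C. linearis* course chose the genes. The 3 were 1 of the 10 peaks and 2 of the 13 dips with at least 10 counts over *C. rattanii*. Among all 29086 such genes, the 3 *C. rattanii* plants were all lower at B2 in 13.5% and all higher in 11.8%, so that 1 peak and 2 dips are close to the background share. The peak RCORA173729 was higher at B2 in each *C. linearis* plant and lower in each *C. rattanii* plant, by -0.0942 CPM on average over the *C. rattanii* plants. The dip RCORA10625, at 0 at *C. linearis* B2, was higher at B2 in each *C. rattanii* plant, by 0.102 CPM on average. The dip RCORA228110, also at 0 at *C. linearis* B2, was higher at B2 in each *C. rattanii* plant, by 0.0903 CPM on average. A dip at 0 at B2 cannot be higher there in *C. linearis*, and for RCORA228110 the *C. linearis* plant 1 difference is 1 count at B1 against 0 at B2 and B3. All 3 *C. rattanii* differences stand on at most 17 counts per library. In *C. rattanii* plant 1 they were -0.0018 CPM for RCORA173729, 0.0163 CPM for RCORA10625 and 0.0185 CPM for RCORA228110. RCORA228110 had 5 counts at each stage in that plant, so the sign there comes from library scaling. For all 3 genes, the side taken by *C. rattanii* plant 1 is therefore not a measured difference.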

How the results depend on the processing

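Membership was set by the choices in the rule. Against 14 peaks and 17 dips, a ratio of 5 to 4 gave 26 peaks and 34 dips, a ratio of 2 to 1 gave 7 peaks, a minimum of 1 CPM gave 28 peaks and a minimum of 5 CPM gave 7 peaks and 9 dips. Leaving out ties at 0, an alternative chosen after seeing the data, gave 6 dips. Without each *C. linearis* library or plant in turn, the count was between 18 and 281 for peaks and between 14 and 176 for dips. Peaks numbered 235 without plant 1 at B1, and dips 175 without plant 3 at B2. DESeq2 size factors kept 13 of the 14 peaks and 16 of the 17 dips. For B3 against B1 in *C. linearis*, the 1192 genes and 4 members became 4121 and 7 at an FDR of 0.05, 3852 and 11 with DESeq2's Wald test, 333 and 1 with plant as a replicate block, 41 and 0 in the *C. linearis* libraries alone, and 2 to 1360 genes and 0 to 9 members when libraries or plants were left out. For B3 against B1 in *C. rattanii*, the 4 genes became 27 at an FDR of 0.05, 291 with DESeq2, 0 with the replicate block, 0 in the *C. rattanii* libraries alone and 0 to 5 with libraries or plants left out. For B2 against B1 and B3 in *C. rattanii*, DESeq2 called 43 genes against 0, with 0 members under each alternative, the block included. Between the species, the 12102 genes and 6 members became 8229 to 12352 genes and 4 to 6 members with libraries or plants left out. Over the named genes, the 4 that passed for B3 against B1 in *C. linearis* lost the call in 49 of 118 alternative fits, and the 2 that passed between the species kept it in all 56. The rule favored a higher *C. linearis* level in those 2 peaks, and the fits share most libraries, so the 56 are not independent support. The 4 named for B2 in *C. rattanii* and the 2 named as lower in *C. linearis* passed under no setting, and 0 of the 348 fits reversed direction. The cause of these changes was not tested. Depth limits the members at under 10 counts per library, whose level at B2 or in *C. rattanii* is near the floor of 3 counts.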
